A study of Mus musculus with 6 samples.

Results

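The genes described here are 10 members of the interleukin 6 (IL-6) family and its Stat3 signalling chain. They were taken by symbol from a count table of 55494 genes, in which all 10 were found: the ligands Il6 and Lif, the receptor chains Il6ra, Il6st, Lifr and Osmr, the kinases Jak1 and Jak2, the transcription factor Stat3 and the feedback inhibitor Socs3. The samples were primary muscle stem cells (MuSCs) of wild-type mice, cultured for 2 days either with 11,12-EET (3 libraries, called EET) or without it (3 libraries, called control). 11,12-EET is an epoxyeicosatrienoic acid, a lipid mediator made from arachidonic acid by cytochrome P450 enzymes. The labels state neither the dose nor the control medium, nor the age or number of mice, and do not say that the 3 libraries of a group are separate animals or cultures. P-values here thus weigh a difference against the spread between libraries alone, and that spread may be technical.

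Most IL-6 family cytokines act through a shared receptor chain, gp130, the product of Il6st. A ligand first binds its own receptor chain, gp130 then brings Janus kinases together, and these phosphorylate STAT3, which enters the nucleus and switches on its targets, among them Socs3, whose product blocks the receptor complex in turn. In skeletal muscle, IL-6 and leukaemia inhibitory factor (LIF) are made by muscle cells themselves, and STAT3 signalling is known to influence whether satellite cells expand or differentiate.

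Library totals were 30371291 to 37243882 counts and did not separate the groups (EET minus control −1148179 counts, exact two-sided permutation p = 0.8, n = 3 each). The TMM scaling factors did separate them, at 0.965 to 0.992 in EET and 1.01 to 1.04 in control libraries. The 8 muscle stem cell markers examined were all detected and summed to 3890 to 3980 CPM in EET and 3390 to 3690 CPM in control libraries, where CPM are counts per 1000000, scaled with TMM factors. Of these, 4 were called higher and 1 lower, or 1 and 1 once the length trend described further on was removed. The 1 lower as counted was Pax7, the transcription factor that defines satellite cells, at 83.5 ± 1.64 CPM in EET and 114.2 ± 4.71 CPM in control cultures (log2 fold change −0.45, adjusted p = 6.35e-05), or −0.049 (adjusted p = 0.517) after trend removal. The 1 lower after trend removal was Myod1 (−0.14, adjusted p = 0.0202), which was called higher as counted (0.25, adjusted p = 0.0047). The 1 higher in that fit was Des (0.52, adjusted p = 0.00013). Markers of other cells were also present, none of them at 0 in any library. The 8 endothelial markers summed to 164 to 183 CPM in EET and 285 to 299 CPM in control libraries (0 of 8 called higher, 6 lower), and the 10 macrophage and leukocyte markers to 206 to 398 CPM in EET and 319 to 349 CPM in control libraries (0 higher, 2 lower). The 8 fibro-adipogenic markers summed to 340 to 354 CPM in EET and 372 to 376 CPM in control libraries (0 higher, 2 lower), and the 5 Schwann cell markers to 271 to 293 CPM in EET and 359 to 366 CPM in control libraries (1 higher, 4 lower). After trend removal the endothelial list had 0 higher and 7 lower, the macrophage and leukocyte list 1 and 6 (median log2 fold change −0.68), the fibro-adipogenic list 0 and 3 and the Schwann cell list 0 and 3. Over all tested genes the shares called were 24.6% higher and 23.3% lower as counted, and 15.3% and 17.1% after trend removal. In bulk RNA, fewer cells of a type and less of an mRNA per cell cannot be told apart, and the part of these other cells in the results that follow was not tested.

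As counted, EET cultures had more Il6 mRNA and less mRNA of the receptor chains, of both kinases and of Stat3, while Socs3 did not pass the test. Most of these calls were not kept in the same direction once a trend with mRNA length, described below, was removed. Il6 was called higher, and Lif, Il6ra, Il6st, Lifr, Osmr, Jak1, Jak2 and Stat3 were called lower (quasi-likelihood test of edgeR, p under 0.05 after Benjamini-Hochberg adjustment over the 16097 tested genes). All 10 genes passed the filter on low counts. The 1 gene higher stands beside 24.6% of all tested genes called higher, and the 8 genes lower beside 23.3% called lower. Their median log2 fold change was −0.37, against 0.0050 over all genes tested. The 3 EET libraries lay wholly above the 3 controls for 1 of the 10 genes, as for 29.6% of tested genes, and wholly below for 8, as for 28% of them.

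**Figure D1:**
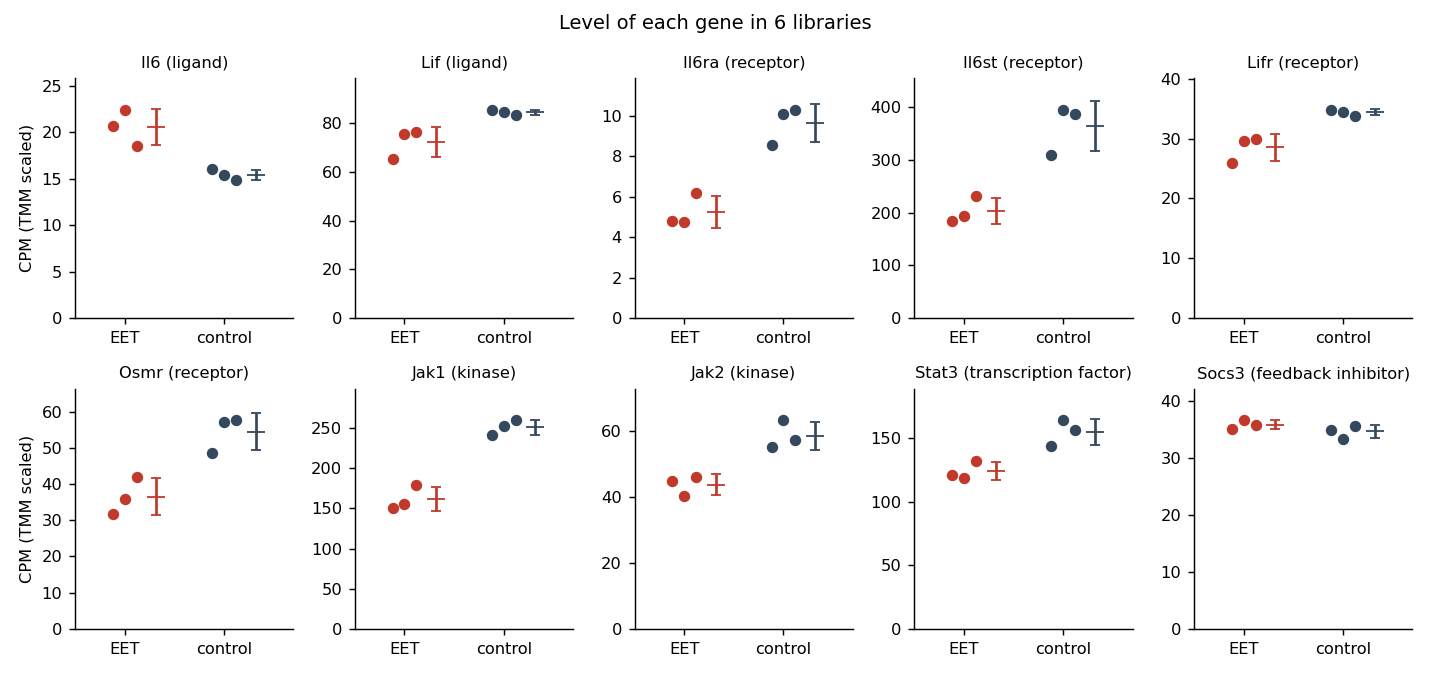
Level of each of the 10 genes in CPM (TMM scaled, linear axis from 0) in the 3 EET libraries (red) and the 3 control libraries (dark blue), with mean ± SD to the right of the points. Il6 points lie higher with EET, Socs3 points overlap, and the other 8 genes lie lower with EET without overlap.

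These 10 genes differ widely in mRNA length, and in these libraries the fold change followed length across the transcriptome. Among tested protein-coding genes the median log2 fold change was 0.48 for 2646 genes with an mRNA of 1000 to under 2000 bp and −0.65 for 829 genes of 8000 bp and over. The longest coding transcripts of the 10 genes ran from 2343 bp (Il6) to 9655 bp (Lifr). Each fold change is therefore followed by its value once the trend of every library with length and GC was taken out, which sets a gene against mRNAs of like length and composition. With the trend removed 2 of the 10 genes were called higher and 3 lower, beside 15.3% and 17.1% of all tested genes, and their median was −0.12, against −0.034 over all genes tested. Jak1, Il6st and Osmr were called lower in both fits. The directions of Lifr and Stat3 turned. The others lost their calls, apart from Socs3, which had none.

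**Figure D2:**
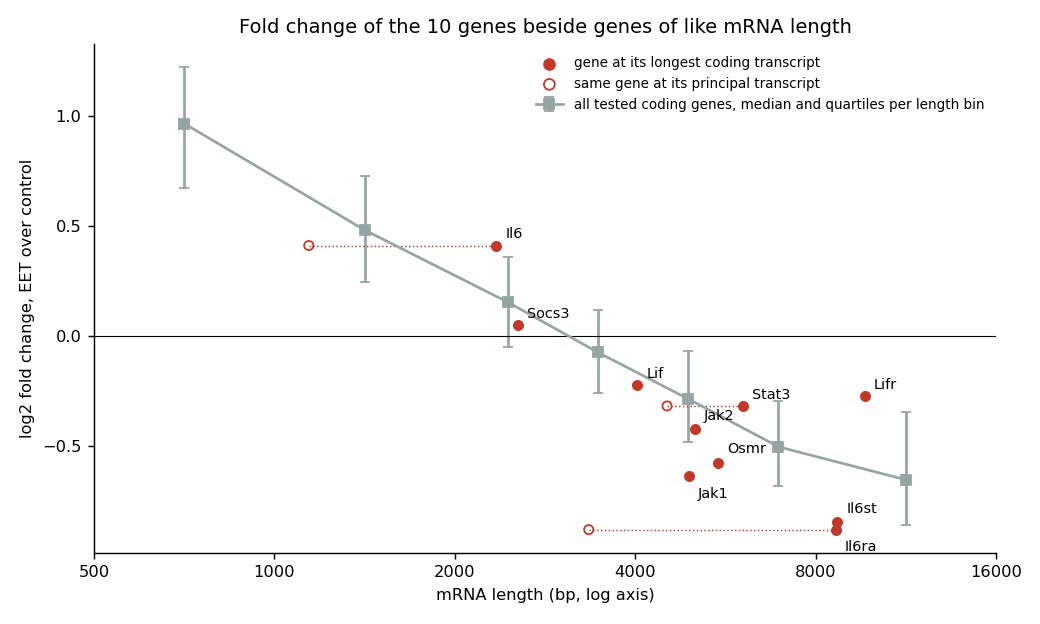
Log2 fold change (EET over control, as counted) against mRNA length on a log axis. Grey squares are medians of all tested protein-coding genes in 7 length bins with bars from the lower to the upper quartile, filled red points are the 10 genes at their longest coding transcript, and open points joined by a dotted line show Il6, Il6ra and Stat3 at their principal transcript. Among the filled points, those of Il6st, Il6ra, Osmr, Jak1 and Jak2 lie under the grey line, and those of Lifr, Stat3 and Il6 above it.

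Of the ligands Il6 and Lif, Il6 was the gene that rose as counted. Interleukin 6 itself, a cytokine that muscle releases on injury and contraction, had 20.7, 22.4 and 18.5 CPM in EET cultures, against 16.0, 15.4 and 14.9 CPM in control cultures. All 3 EET values lay above all 3 control values. The log2 fold change was 0.41 ± 0.10 (SE; adjusted p = 0.0038), about 1.33-fold. Il6 stayed called higher without any single library, with its weakest value, 0.35 ± 0.11 (adjusted p = 0.0292), without EET replicate 2. The 10 macrophage and leukocyte markers summed to 398 CPM in EET replicate 1, against 224 and 206 CPM in the other EET libraries. Most of each sum was Lyz2, at 282.8 CPM in EET replicate 1 and 144.7 and 128.4 CPM in the others. Without EET replicate 1 the log2 fold change of Il6 was 0.41 (adjusted p = 0.012). The part of macrophages in the Il6 value was not tested.

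The Il6 value depended on the transcript taken as its length. Il6 has 4 annotated coding transcripts of 651 to 2343 bp, and its principal transcript, the main protein-coding form in the annotation, is 1141 bp. With the trend removed at the longest transcript the log2 fold change was 0.18 (adjusted p = 0.126), and at the principal transcript it was −0.16 (adjusted p = 0.155). Neither was called. As counted, Il6 thus lay above the median of 0.15 for mRNAs of 2000 to under 3000 bp and below the median of 0.48 for those of 1000 to under 2000 bp.

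The Il6 promoter is shown because Il6 was the 1 gene of the 10 that was higher as counted and because its start region carries the classic elements of an inducible cytokine gene. Il6 lies on the plus strand of chromosome 5 at 30013114 to 30019981 (GRCm38). The sequence, from RefSeq (GRCm38.p6, chr5:30012864-30013163, plus strand), runs from 250 bases before the start to 50 bases after it, and capitals mark, in order, matches to an AP-1 motif (TGANTCA), a C/EBP motif (TTGCNNAA, read on the opposite strand) and an NF-kB motif (GGG and TTTCC with 2 free bases between them).
Il6: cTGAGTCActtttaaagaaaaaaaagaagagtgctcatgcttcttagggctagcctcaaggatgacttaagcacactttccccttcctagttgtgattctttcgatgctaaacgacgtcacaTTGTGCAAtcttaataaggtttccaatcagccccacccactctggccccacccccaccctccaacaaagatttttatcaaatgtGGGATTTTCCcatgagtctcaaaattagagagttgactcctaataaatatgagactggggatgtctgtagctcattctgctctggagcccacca

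The matches begin 249, 128 and 44 bases before the start and do not overlap each other. Searched on both strands of 32851 RefSeq windows of the same length, the AP-1 letters were found in 7.81% of windows, the C/EBP letters in 10.8% and the NF-kB letters in 1.63%. Among the 11 windows of the 10 genes (Lifr has more than 1), AP-1 letters were in 3 (Il6, Lif and Osmr) and C/EBP and NF-kB letters each in 1 (Il6). The lists of further genes hold 4 genes that encode C/EBP or AP-1 factors, Cebpb, Cebpd, Fos and Junb, named here after their values were seen. Cebpb averaged 52.4 ± 8.55 CPM in EET and 36.1 ± 2.52 CPM in control cultures, and Cebpd 38.1 ± 3.73 CPM in EET and 25.7 ± 2.42 CPM in control cultures (SD, n = 3 each). Both C/EBP genes rose as counted (log2 fold changes 0.54 and 0.57, adjusted p = 0.00091 and 0.00026). With the trend removed Cebpd was still called higher at 0.70, while Cebpb was at −0.11 (adjusted p = 0.417). Of the AP-1 genes, Fos averaged 29.3 ± 2.74 CPM in EET and 36.8 ± 0.897 CPM in control cultures, and was called lower as counted (−0.33, adjusted p = 0.0072) and after trend removal (−0.59, adjusted p = 1.9e-05). Junb averaged 195.6 ± 2.60 CPM in EET and 163.9 ± 14.1 CPM in control cultures, and was called higher as counted (0.26, adjusted p = 0.0083) but lower after trend removal (−0.20, adjusted p = 0.0032).

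Lif encodes leukaemia inhibitory factor, which promotes myoblast proliferation. It had 65.3, 75.4 and 76.3 CPM in EET cultures, against 85.4, 84.4 and 83.3 CPM in control cultures. The groups did not overlap, but EET replicate 1 lay further under the other EET libraries than these lay under the lowest control. Its log2 fold change was −0.22 ± 0.08 (adjusted p = 0.025). Leaving out EET replicate 1 ended that call (−0.15, adjusted p = 0.127), as did leaving out control replicate 2 (adjusted p = 0.0774) or control replicate 3 (adjusted p = 0.0658). After trend removal it was at −0.051 (adjusted p = 0.548).

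Among the receptor chains, Il6st moved most in absolute level. Its product gp130 passes on the signal of most members of the family, and the gene lies on the plus strand of chromosome 13 at 112464070 to 112510086. Il6st had 184.8, 192.8 and 230.9 CPM in EET cultures, against 309.9, 395.0 and 387.5 CPM in control cultures. The groups were well apart, the highest EET library being EET replicate 3 and the lowest control being control replicate 1. Il6st fell to 0.557 of the control level (log2 fold change −0.84 ± 0.10, adjusted p = 1.54e-05). After trend removal it was still called lower, at −0.23 ± 0.05 (adjusted p = 0.00107), and it stayed called without any single library (−0.27 to −0.20).

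Il6ra encodes the IL-6 binding chain, which lets a cell answer IL-6 directly. It had 4.79, 4.77 and 6.18 CPM in EET cultures, against 8.57, 10.1 and 10.3 CPM in control cultures. All EET values were lower than all control values. The log2 fold change was −0.88 ± 0.15 (adjusted p = 0.00025). Its 8639 bp transcript is the longer of 2 coding forms, and its principal transcript is 3343 bp. After trend removal it was at −0.25 (adjusted p = 0.166) at the longer form and called lower at −0.79 (adjusted p = 0.00034) at the principal form. An antisense gene, Gm42809, shares 242 exon bases with Il6ra, and no source used here says whether the counting used strand.

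Osmr encodes the oncostatin M receptor, which pairs with gp130. It had 31.6, 35.99 and 41.97 CPM in EET cultures, against 48.7, 57.3 and 57.6 CPM in control cultures. The groups did not overlap, with control replicate 1 again the lowest control. Its log2 fold change was −0.58 ± 0.11 (adjusted p = 0.00035). It was called lower with the trend removed, at −0.20 (adjusted p = 0.0285), or −0.19 (adjusted p = 0.0417) at principal transcripts genome-wide. That call, made after trend removal, ended on leaving out EET replicate 1 (adjusted p = 0.14) or 2 (adjusted p = 0.0752), and likewise control replicate 2 (adjusted p = 0.105) or 3 (adjusted p = 0.111).

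Lifr encodes the LIF receptor, which also pairs with gp130. It had 25.95, 29.6 and 30.0 CPM in EET cultures, against 34.8, 34.5 and 33.8 CPM in control cultures. The EET libraries lay under the controls by a narrow margin. Its log2 fold change was −0.27 ± 0.09 (adjusted p = 0.0185), and leaving out EET replicate 1 (adjusted p = 0.0892) or control replicate 2 (adjusted p = 0.0612) ended the call. Once the trend was removed its direction turned, to a call higher at 0.32 ± 0.08 (adjusted p = 0.0042), and it stayed higher and called without any single library (0.27 to 0.40) and at principal transcripts (0.27, adjusted p = 0.0116). Its longest transcript of 9655 bp is among the lengths where the median gene was at −0.65.

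Lifr and Il6st have transcripts of like length and form 1 receptor together, so their counts were also compared within each library. There were 7.12, 6.52 and 7.70 Il6st counts per Lifr count in EET cultures, against 8.90, 11.4 and 11.5 in control cultures. The ratio was lower in every EET library, by 0.57 on the log2 scale, beyond the spread in either group (SD 0.12 in EET and 0.21 in control). The exact two-sided permutation p was 0.1, the smallest that 3 against 3 libraries allow, or 0.133 adjusted over the 4 pairs of genes compared. These pairs were chosen after the values were seen. Il6ra and Il6st, by contrast, kept a close ratio as counted. There were 0.0259, 0.0247 and 0.0268 Il6ra counts per Il6st count in EET cultures, against 0.0276, 0.0255 and 0.0266 in control cultures (log2 difference −0.043, exact permutation p = 0.5, n = 3 each). The 2 groups overlapped. These ratios are not corrected for length and GC. With the trend removed, Il6ra was at −0.25 and Il6st at −0.23 at longest transcripts, and at −0.79 and −0.27 at principal transcripts.

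**Figure D3:**
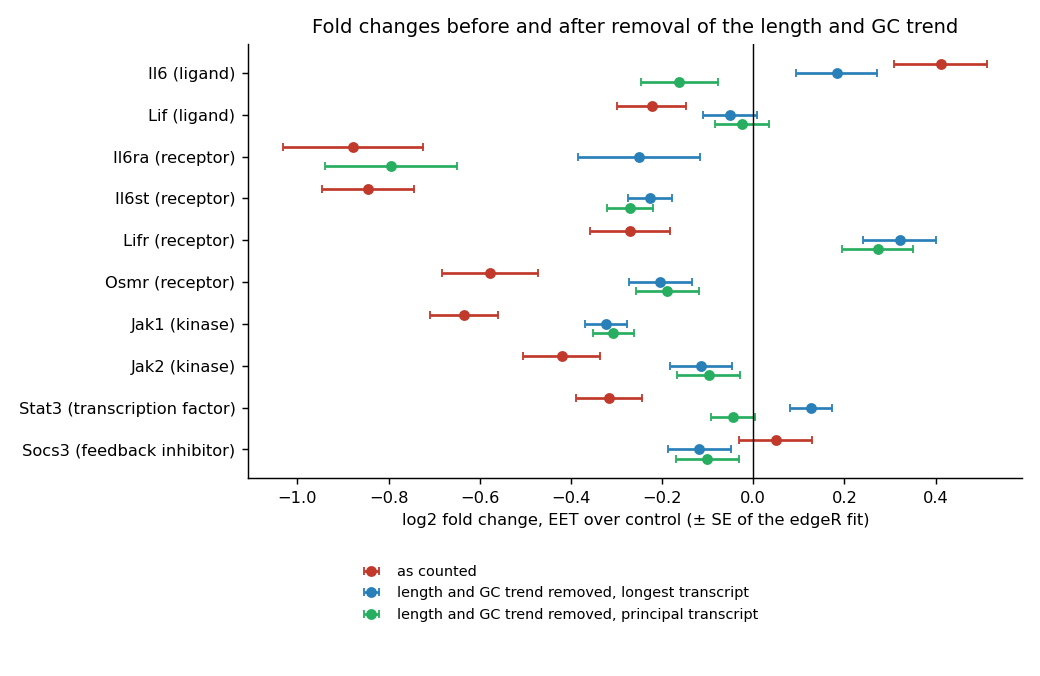
Log2 fold change (EET over control) of each gene with its SE in 3 fits, as counted (red), with the length and GC trend removed at the longest coding transcript (blue) and with it removed at the principal transcript (green). Jak1, Il6st, Osmr, Il6ra, Jak2 and Lif stay left of 0 in all 3. Lifr crosses to the right, as does Stat3 at its longest transcript only. Socs3 crosses to the left in both fits with the trend removed, and Il6 does so at its principal transcript.

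Jak1 was the kinase with the larger fall. Its product is the main kinase bound to gp130, and the gene lies on the minus strand of chromosome 4 at 101152367 to 101265282. Jak1 had 150.2, 156.2 and 179.1 CPM in EET cultures, against 241.3, 252.7 and 259.7 CPM in control cultures. The gap between the groups was wider than the range in either. Jak1 fell to 0.644 of the control level (log2 fold change −0.63 ± 0.07, adjusted p = 1.02e-05). It was still called lower with the trend removed, at −0.32 ± 0.05 (adjusted p = 2.02e-05), and in that fit it kept its call without any single library (−0.36 to −0.30).

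Jak2, a kinase that also serves growth hormone and many cytokine receptors, had 44.9, 40.2 and 46.0 CPM in EET cultures, against 55.0, 63.2 and 57.3 CPM in control cultures. The groups did not overlap. Its log2 fold change was −0.42 ± 0.08 (adjusted p = 0.00079), but after trend removal it was at −0.11 (adjusted p = 0.221). The longest transcripts of Jak1 and Jak2 are 4906 and 5030 bp. There were 3.34, 3.89 and 3.90 Jak1 counts per Jak2 count in EET cultures, against 4.39, 4 and 4.53 in control cultures. Every EET ratio was lower (log2 difference −0.22, exact permutation p = 0.1, the smallest possible, n = 3 each). This pair, too, was chosen after the values were seen. Adjusted over the 4 pairs of genes compared, that permutation p was 0.133.

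Stat3, the transcription factor that the family activates, had 121.2, 119.1 and 132.4 CPM in EET cultures, against 143.6, 164.1 and 156.6 CPM in control cultures. All EET values were lower. Its log2 fold change was −0.32 ± 0.07 (adjusted p = 0.0022). After trend removal at its longest transcript (6042 bp) the direction turned to 0.13 (adjusted p = 0.041), and leaving out any 1 of the 6 libraries ended that call (adjusted p = 0.0562 to 0.15). At its principal transcript (4516 bp) the value was −0.045 (adjusted p = 0.53). Stat5a, on the opposite strand, shares 72 exon bases with Stat3.

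Socs3 did not pass the test in any fit. The gene encodes the inhibitor that STAT3 induces and that binds gp130 and the kinases. Socs3 had 35.2, 36.6 and 35.9 CPM in EET cultures, against 35.0, 33.4 and 35.6 CPM in control cultures. The groups overlapped. The log2 fold change was 0.049 ± 0.08 (adjusted p = 0.654), with a 95% interval of −0.12 to 0.22. After trend removal it was −0.12 (adjusted p = 0.213, 95% interval −0.26 to 0.03). Though Socs3 was not called in that fit, its EET levels there were 32.1, 34.7 and 34.4. They lay below the control levels of 35.3, 36.2 and 38.3. There were 0.588, 0.612 and 0.516 Il6 counts per Socs3 count in EET cultures, against 0.457, 0.462 and 0.418 in control cultures. Every EET ratio was higher (log2 difference 0.36, exact permutation p = 0.1, the smallest possible, n = 3 each). This pair was chosen after the values were seen, which the adjustment does not correct for. Adjusted over the 4 pairs of genes compared, that permutation p was 0.133. These counts are not corrected for length and GC. With the trend removed, Il6 was at 0.18 and Socs3 at −0.12 at longest transcripts, and at −0.16 and −0.10 at principal transcripts.

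The RefSeq start window of Socs3 is shown because Socs3 is the pathway's own target. It was the only 1 of the 11 windows with the STAT motif letters TTCNNNGAA, which read the same on both strands. The letters were found in 8.3% of all 32851 windows. The sequence is from RefSeq (GRCm38.p6, chr11:117969317-117969616, minus strand, given 5′ to 3′ along the gene), and capitals mark the match, which begins 154 bases before the RefSeq start.
Socs3: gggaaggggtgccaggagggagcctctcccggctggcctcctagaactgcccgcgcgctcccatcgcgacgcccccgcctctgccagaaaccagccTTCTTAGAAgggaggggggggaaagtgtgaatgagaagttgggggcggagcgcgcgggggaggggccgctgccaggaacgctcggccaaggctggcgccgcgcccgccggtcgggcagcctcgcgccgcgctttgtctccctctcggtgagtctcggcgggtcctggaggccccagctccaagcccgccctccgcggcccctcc

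RefSeq and GENCODE place the Socs3 start differently. In GENCODE, Socs3 lies on the minus strand of chromosome 11 at 117966079 to 117970047. The window and its match thus lie inside the gene as annotated there, downstream of its GENCODE start. The last 30 bases of this window are in none of the GENCODE transcripts of Socs3. Other start regions of the gene were not searched.

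Per length of the longest transcript, the levels of the 10 genes spanned a wide range. In EET cultures Jak1 had 33.0 ± 3.11 CPM per kb, Il6st 23.4 ± 2.84, Stat3 20.6 ± 1.18 and Lif 18.0 ± 1.52 CPM per kb (SD, n = 3). Socs3 followed at 14.1 ± 0.284, Il6 at 8.77 ± 0.837, Jak2 at 8.69 ± 0.614, Osmr at 6.65 ± 0.946, Lifr at 2.95 ± 0.231 and Il6ra at 0.607 ± 0.0938 CPM per kb. Il6st overlapped with Stat3, and Il6 with Jak2, among the EET libraries, and no other neighbours in this order overlapped. In control cultures the order was the same down to Socs3, with Jak1 at 51.2 ± 1.89, Il6st at 42.0 ± 5.43, Stat3 at 25.6 ± 1.72, Lif at 20.96 ± 0.255 and Socs3 at 13.6 ± 0.448 CPM per kb. Jak2 (11.6 ± 0.838) and Osmr (9.93 ± 0.919) stood above Il6 (6.59 ± 0.233), followed by Lifr (3.56 ± 0.052) and Il6ra (1.12 ± 0.109 CPM per kb), and no neighbours overlapped. Il6ra, the chain specific to IL-6, was thus the lowest in both groups. The order depended on the transcript taken. Per length of the principal transcript Stat3 had 27.5 ± 1.58 CPM per kb in EET and 34.3 ± 2.30 in control cultures, so that its EET mean stood above that of Il6st and its control mean below it. Il6 had 18.0 ± 1.72 CPM per kb in EET and 13.5 ± 0.478 in control cultures, and Il6ra had 1.57 ± 0.242 CPM per kb in EET and 2.89 ± 0.282 in control cultures.

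**Figure D4:**
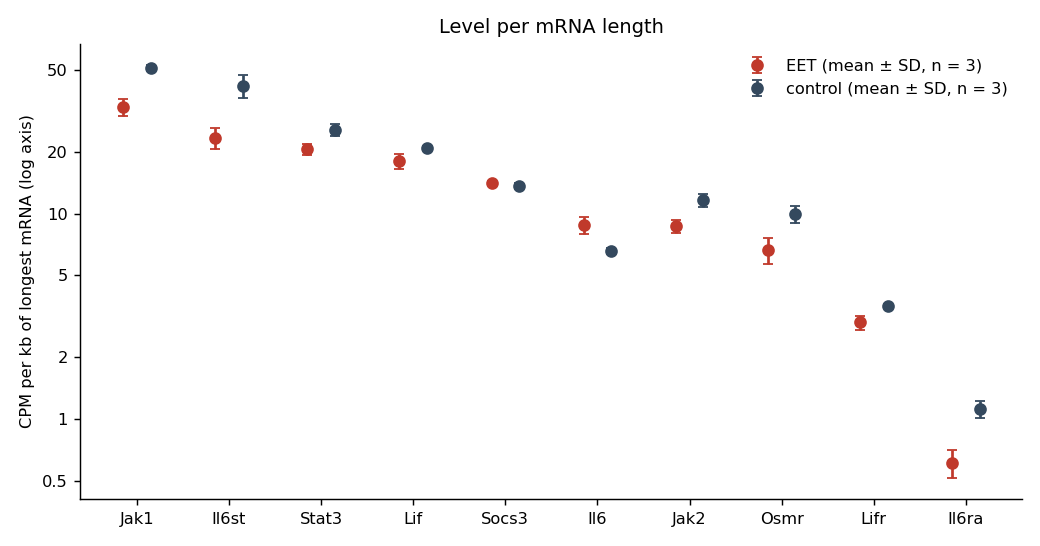
Level of each gene in CPM per kb of its longest coding transcript (log axis) in EET (red) and control (dark blue) cultures, as mean ± SD of 3 libraries. Genes are ordered by their EET level, from Jak1 at 33.0 to Il6ra at 0.607 CPM per kb.

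The other genes of the pathway moved both ways. Of 63 further genes, 60 were tested, 16 rose, 14 fell and 30 did not pass, with a median log2 fold change of −0.035. With the trend removed at the longest coding transcripts, 10 were called higher and 18 lower, with a median of −0.085. For single further genes, trend-removed values are given at that length only. As counted, 24.6% of all tested genes were called higher and 23.3% lower. After trend removal the shares over all tested genes were 15.3% higher and 17.1% lower.

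Ligand genes other than Il6 and Lif had 4 of 7 tested members called higher and 0 lower (median 0.29). Clcf1, a ligand of the ciliary neurotrophic factor receptor, averaged 90.0 ± 1.44 CPM in EET and 74.3 ± 5.02 CPM in control cultures (log2 fold change 0.28, adjusted p = 0.0052). With the trend removed it was at −0.089 and not called, and the list had 0 members higher and 1 lower (median −0.028). Of 3 further receptor genes tested, 1 rose and 0 fell (median 0.56), or 0 and 0 with the trend removed (median 0.22). It was Il11ra1, the interleukin 11 receptor chain (17.3 ± 1.72 CPM in EET and 11.7 ± 0.555 CPM in control cultures, log2 fold change 0.56, adjusted p = 0.00061). Il27ra stayed under 1 CPM on average in each group and did not pass (adjusted p = 0.425).

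Of 7 tested JAK and STAT genes outside the 10, 2 fell and 0 rose (median −0.16). Stat2, which carries interferon signals, averaged 12.6 ± 0.456 CPM in EET and 21.4 ± 1.77 CPM in control cultures (log2 fold change −0.77, adjusted p = 2.66e-05), and Stat6, which carries interleukin 4 signals, 73.9 ± 4.92 CPM in EET and 96.1 ± 3.79 CPM in control cultures (−0.38, adjusted p = 0.00059). After trend removal both kept a call lower, at −0.53 and −0.25, and the list had 2 members higher and 2 lower (median −0.015). Among 19 negative regulators 3 rose and 6 fell (median −0.10), or 4 and 5 with the trend removed (median −0.071). Ndufa13, known as GRIM-19, is a respiratory chain subunit that binds STAT3, and it averaged 41.6 ± 8.41 CPM in EET and 18.1 ± 1.7 CPM in control cultures (1.198, adjusted p = 7.79e-06; 0.50 with the trend removed). Socs7 averaged 28.7 ± 3.55 CPM in EET and 49.4 ± 2.26 CPM in control cultures (−0.78, adjusted p = 1.42e-05; −0.25 with the trend removed). Socs1, a feedback inhibitor of Janus kinases named here after its values were seen, averaged 12.3 ± 1.89 CPM in EET and 7.39 ± 1.55 CPM in control cultures, and rose in both fits (0.74, adjusted p = 0.0015; 0.66 with the trend removed). Ptpn2 also rose in both fits (0.49; 0.34 with the trend removed). Also called lower as counted were Socs4 (−0.33), Socs5 (−0.35), Ptpn11 (−0.55), Cbl (−1.14) and Pias3 (−0.26). With the trend removed Ptpn11 (−0.16), Cbl (−0.50) and Pias3 (−0.30) kept a call lower, and Socs4 and Socs5 lost theirs. All of these were likewise named after their values were seen.

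Of 24 known targets of STAT3, 8 rose, 6 fell and 10 did not pass (median 0.14), or 4, 10 and 10 with the trend removed (median −0.14). The 10 called lower after trend removal stand beside 17.1% of all tested genes called lower in that fit, and the 4 called higher beside 15.3%. Birc5, which encodes the survival and mitosis protein survivin, averaged 137.8 ± 15.7 CPM in EET and 69.0 ± 6.16 CPM in control cultures (log2 fold change 1.00, adjusted p = 1.83e-06; 1.05 with the trend removed). Timp1, a metalloprotease inhibitor with an mRNA of 883 bp, averaged 480.9 ± 68.3 CPM in EET and 273.9 ± 25.0 CPM in control cultures (0.81, adjusted p = 1.55e-05), but was at −0.11 with the trend removed and not called.

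**Figure D5:**
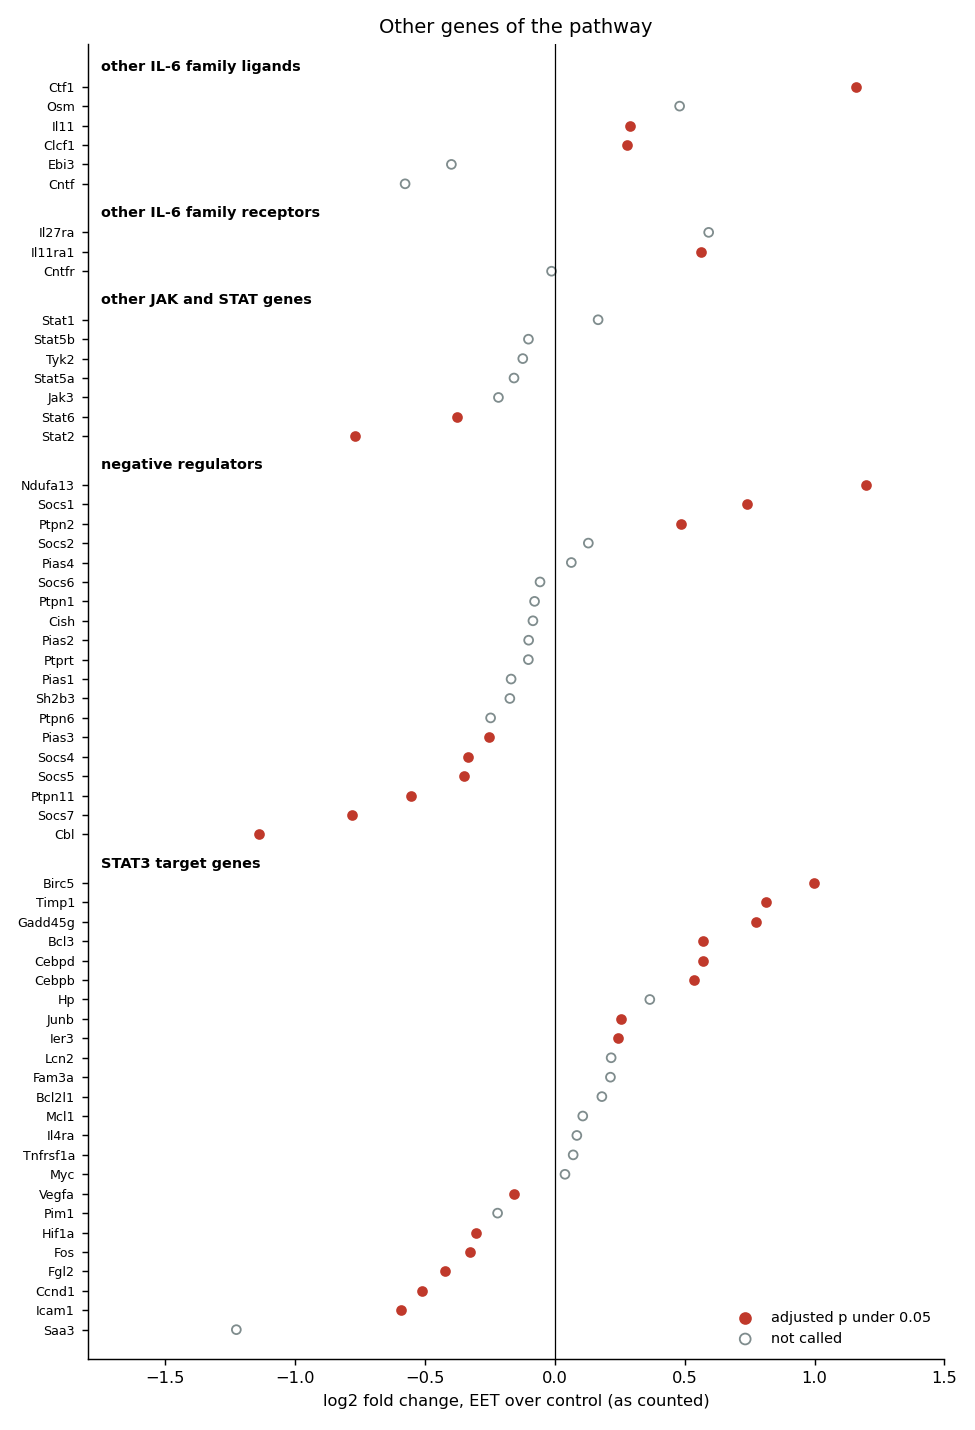
Log2 fold change (EET over control, as counted) of 59 of the 60 tested further genes of the pathway in 5 lists, filled where the adjusted p was under 0.05 and open where it was not. Ligands other than Il6 and Lif called at this level lie right of 0, and the JAK and STAT genes called lie left of it.

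The genes whose pattern over the 6 libraries lay nearest to Il6 were Ftsj1, Tprgl and Ppp2r3c, at Euclidean distances of 0.038, 0.0427 and 0.07 between mean-centred log2 CPM profiles, among 8915 genes of at least 10 CPM. Their log2 fold changes were 0.40, 0.39 and 0.44. Nearest to Socs3 were Olfm1, Sephs1 and Wwp2, at distances of 0.0438, 0.0473 and 0.0475, with log2 fold changes of 0.06, 0.03 and 0.01. Both sets were chosen by likeness of these as-counted profiles, so fold changes near those of Il6 and Socs3 follow from the choice.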

How the data were processed

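Per the labels' protocols, libraries were made from poly(A) RNA, with dUTP in the second strand, and read from both ends. The deposited values are raw counts, 1 whole number per gene symbol and library. The submitters' processing notes name FastQC, cutadapt, DESeq2 and GRCm38. Aligner, counting tool, strand setting and annotation release were not given in the sources used here. Counts of 11 to 50 were even in 65.0 to 65.6% of cases in EET and 61.3 to 62.1% in control libraries, so mates may have been counted apart and precision may be lower than the totals of 30371291 to 37243882 would give. Every pair of libraries differed by more than counting noise (chi-square per gene 5.92 or more).

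The fit used edgeR 4.0.16 under R 4.3.3 (TMM scaling after filterByExpr, robust glmQLFit, glmQLFTest), 3 EET against 3 control libraries without a block, with Benjamini-Hochberg adjustment over all genes tested and a threshold of 0.05. A ± beside a log2 fold change is the SE from this fit. Replicate numbers were not treated as pairs. Lengths, GC content and gene coordinates come from GENCODE M21 (GRCm38; 53365 rows matched by symbol). To remove the trend, every library's log2 deviation from the gene mean was smoothed on length and GC (robust loess, span 0.3) and entered as an offset. The pipeline was tested on simulated counts. Motif matches in RefSeq windows are letter matches only. The alternatives were other scalings, filters, DESeq2 1.42.0, limma-voom (limma 3.58.1), no robust estimation, the replicate block, counts divided by 2 and leaving out each library. Leaving out libraries with the trend removed and the use of principal transcripts were added after the data were seen. The genes and lists were chosen with earlier results of these data known. Named genes were the 10 members, in each further list the 2 tested genes with the smallest p, and the 3 nearest profiles to Socs3 and Il6 (mean of at least 10 CPM, Gm and Rik gene models left out, pseudocount 0.5); others are said to be chosen after their values were seen. The values of 1 further gene that this rule selects are not reported here, though list counts include it.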

Additional observations from a re-analysis of the deposited data

How the results depend on the processing

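Without removal of the length and GC trend, 1 gene of the 10 was called higher and 8 lower under RLE scaling, library totals, no filter, over 5 CPM in at least 3 libraries, DESeq2, limma-voom, no robust estimation, counts divided by 2 and the replicate block, where all genes gave 4238 higher and 4083 lower against 3967 and 3749. Same-numbered libraries did not deviate together (correlations −0.0501 to 0.00893). The labels state no pairing, and these correlations cannot show whether same-numbered libraries were prepared together. Socs3, never called, was at −0.021 under library totals. Without single libraries and with the trend kept, 6 to 8 of the 10 genes were lower and 1 higher, all genes called higher reached 4121, those called lower 3934 and further pathway genes called higher 19, and of the 4 genes whose direction turned in the trend-removed leave-one-out fits, the log2 fold change furthest from 0 was −0.26 for Lif, −0.31 for Lifr, −0.37 for Stat3 and 0.067 for Socs3. The calls of Lif and Lifr ended without some libraries, as given with their values.

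Trend removal changed most values, and the cause was not tested. The 10 genes had 2 higher and 3 lower, also with the replicate block, or 1 higher and 4 lower at principal transcripts; without single libraries 1 was higher and 2 to 3 lower. Further pathway genes called higher were 10 (also with the block and at principal transcripts) against 16, and 8 to 11 without single libraries. All genes called higher were 2456, 2556 with the block and 2478 at principal transcripts, or 1922 to 2503 without single libraries; lower were 2749, or 1837 to 2765. Directions turned for Lifr (0.32; 0.32 with the block; 0.27 at principal transcripts; 0.27 to 0.40 without single libraries), Stat3 (0.13; 0.13 with the block; 0.11 to 0.15), Socs3 (−0.12; −0.12 with the block; −0.10; −0.14 to −0.083), Il6 (−0.16 at principal transcripts) and Lif (0.0090 without EET replicate 1).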
